A study of Mus musculus with 11 samples.

Results

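The mouse embryonic stem (ES) cells examined here came from a pair of single-cell libraries, the JupLow library in serum/LIF and the wild type library in 2i/LIF. Barcodes with at least 1000 unique molecular identifiers (UMIs, tags that count transcripts) and at most 0.9 detected genes per UMI were taken as cells. This kept 1200 of 8513 deposited barcodes of JupLow and 2889 of 4697 of wild type 2i/LIF, together 4089 of the 7079 cells kept by the same rule in the 5 single-cell libraries of the series. The series holds 11 samples in all, and its title and design ask how plakoglobin, the product of Jup, bears on naive pluripotency in cells on plastic and in soft gels. The 6 bulk libraries were not used here.

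JupLow cells carry the genotype PGLOW in the labels, low overexpression of plakoglobin from the constitutive CAG promoter. They grew in serum/LIF on tissue-culture plastic, and their parent line is not named in the labels. The 2i/LIF cells were wild type E14, also on tissue-culture plastic. The cells of both were washed with PBS and profiled with inDrop, a droplet method. The other 3 single-cell libraries were a JupHigh line (genotype PGHIGH, high overexpression from the same promoter, serum/LIF, plastic), wild type E14 in serum/LIF on plastic and wild type E14 in serum/LIF in agarose microgels. Medium, line and transgene all differ between JupLow and wild type 2i/LIF, so their parts in any difference cannot be told apart. Each side is 1 library with no replicate. All intervals below are 95% intervals that cover counting error only, and no test between conditions was possible.

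Naive pluripotency is the ground state of the early epiblast, held in culture by transcription factors such as Nanog, Esrrb, Klf4 and Tfcp2l1. The 2i medium joins inhibitors of MEK and GSK3, so ERK signalling is blocked and beta-catenin is stabilised, while LIF acts through STAT3 and serum brings BMP-like activity and many growth factors. In serum/LIF, ES cells are known to fluctuate between naive and more advanced, formative states. Plakoglobin is a catenin of adherens junctions and desmosomes and a close relative of beta-catenin.

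JupLow cells held 2878334 UMIs in total with a median of 2193.5 a cell, and 2i/LIF cells held 8284254 with a median of 2465. Mitochondrial genes took 11.4% of the UMIs in JupLow and 9.82% in 2i/LIF, and genes of cytoplasmic ribosomal proteins took 6.70% and 9.85%. Mitochondrial UMIs were unevenly spread over cells: the median cell gave them 5.31% in JupLow and 5.15% in 2i/LIF, the upper quartile was 23.97% and 7.17%, and 450 JupLow cells (37.5%) and 400 2i/LIF cells (13.8%) lay above 15%, a limit chosen after the data were seen. A high mitochondrial share is a usual sign of damaged cells, and the shares of cells below are therefore also given without those cells for the main lists. No cell barcode was shared between any pair of the 5 libraries. In JupLow 7311 barcodes lay under 1000 UMIs, against 1807 in 2i/LIF, and 43.8% and 42.5% of the cells kept had fewer than 2000 UMIs. No cell type that should lack these genes was at hand to measure free RNA, so levels in barcodes under 1000 UMIs are given beside the shares of cells. Genes that overlap another gene in the annotation took 48.3% of the UMIs in both libraries, and whether counting used strand is not stated in the sources used here, so reads of such a gene and its partner may not be told apart. The wild type serum/LIF plastic table lists Sox2, Cox4i1 and mt-Nd4 with no UMI, while other genes that overlap a neighbour, such as Tagln and Dnmt3b, are counted there. The reason was not tested, and levels from that table are printed with that limit.

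Jup itself was close between the libraries. It had 109 UMIs in JupLow, 37.9 CPM (UMIs scaled to a common library total), and 387 UMIs in 2i/LIF, 46.7 CPM, a log2 ratio of -0.303 (-0.62 to 0.01). After each cell was thinned to 1000 UMIs, 3.33% (2.39 to 4.51) of JupLow cells and 4.53% (3.805 to 5.36) of 2i/LIF cells had a Jup UMI, or 8.25% and 12.1% unthinned, and barcodes under 1000 UMIs held it at 44.7 and 27.1 CPM. JupHigh stood at 47.8 CPM, wild type serum/LIF at 36.7 and gels at 38.1. The library labelled JupLow thus lay within the range of the 3 wild type libraries in counted Jup. Whether the transgene carries the 3' end that inDrop counts is not stated in the labels, so this level does not check the genotype.

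Across the 7304 genes that reached 20 CPM in at least 1 of the 2 libraries, 845 (11.6%) were 2-fold or more higher in JupLow and 591 (8.09%) were 2-fold or more lower. At 4-fold, 363 were higher and 137 lower. The median log2 ratio was -0.01. The counting interval of every 2-fold gene excluded 0, but at 20 CPM the UMIs of these libraries are enough to fix that outcome. It therefore lends the calls no support. Without the cells above 15% mitochondrial UMIs the numbers were 931 higher and 526 lower of 7621. Among the genes that stood higher were smooth muscle and stress fibre genes, keratins, tight junction and integrin genes, ERK targets and genes of the formative state. Those that stood lower included most naive pluripotency factors, 3 of 8 tested targets of beta-catenin and the metallothioneins. The gene lists and their members were chosen with earlier results of these data known. A list share above that of all tested genes, here and below, is therefore a description and no independent support. The scatter of all genes shows the keratin genes and most contractile genes above the diagonal and most naive factors below it.

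**Figure D1:**
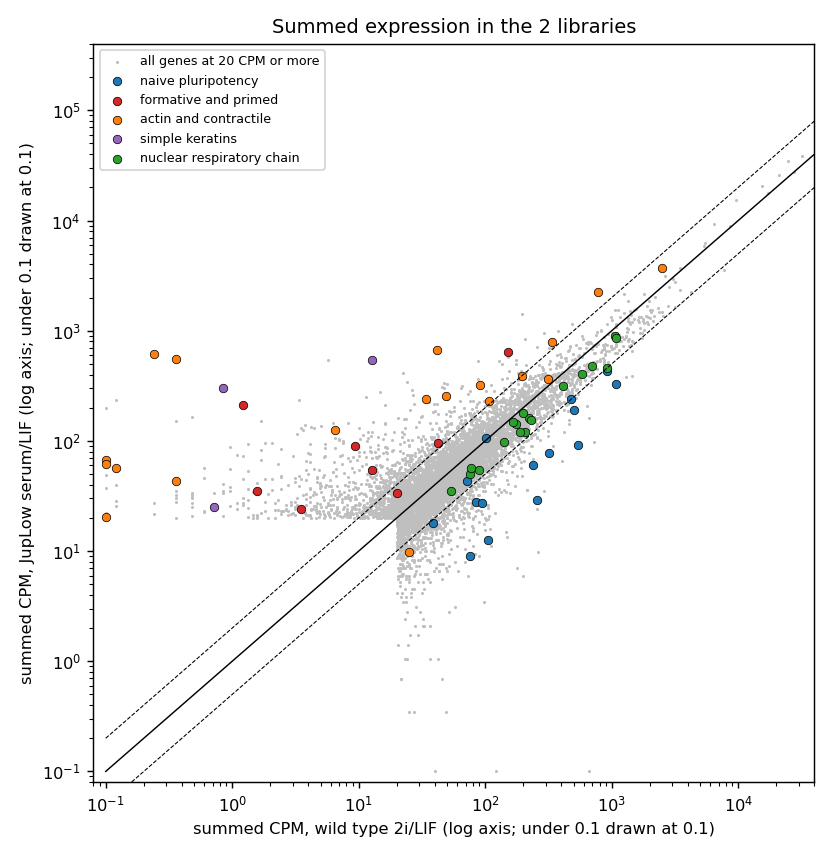
Summed CPM of each gene at 20 CPM or more in wild type 2i/LIF (horizontal, log axis) and in JupLow serum/LIF (vertical, log axis), with values under 0.1 drawn at 0.1; the solid line marks equal levels and the dashed lines a ratio of 2. Coloured points are genes of 5 lists; Tagln sits at 613 CPM in JupLow and 0.241 in 2i/LIF, and Nanog at 92.4 and 539.

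Of the 18 naive pluripotency genes, 15 reached 20 CPM in a library. Of these 12 were 2-fold or more lower in JupLow and none was 2-fold or more higher, against 8.09% and 11.6% of all tested genes, with a median log2 ratio of -1.73. Nanog, the homeodomain factor at the centre of the network, stood at 92.4 CPM in JupLow and 539 in 2i/LIF (log2 ratio -2.54, -2.73 to -2.37). Esrrb, a nuclear receptor that acts with it, had 78.2 against 318 CPM (-2.03, -2.23 to -1.83). Both were several-fold lower in JupLow.

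Among the 15 at 20 CPM the lowest ratios belonged to Tfcp2l1, Tbx3 and Tcl1. Tfcp2l1, a grainyhead-family factor that LIF and 2i both sustain, had 28.8 CPM in JupLow against 256 (-3.15, -3.48 to -2.83). Tbx3, a T-box factor, had 12.5 against 105 (-3.07). Tcl1, a cofactor of the kinase AKT, had 9.03 against 75.8 (-3.07). Each of them had a ratio lower than that of Nanog.

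Among the Kruppel-like factors the members differed. Klf4 had 60.1 CPM in JupLow and 238 in 2i/LIF (-1.99), and Klf2 had 191 and 499.9 (-1.38). Klf5 had 107 and 102 (0.07, -0.13 to 0.26), a difference within counting error. Zfp42, known as Rex1, lay just short of 2-fold with 239 against 475 (-0.99, -1.11 to -0.87), and Nr0b1, an orphan nuclear receptor, had 43.4 against 72.1 (-0.73).

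Other 2-fold lower members were Tdh, Dppa5a, Fgf4, Nr5a2 and Dppa3. Tdh, the threonine dehydrogenase on which mouse ES cells depend, had 328 CPM against 1087 (-1.73). Fgf4, the growth factor that drives ERK in ES cells, had 27.1 against 93.8 (-1.79). Dppa3, or Stella, had 18.1 against 38.99 (-1.11). Spic, Prdm14 and Gbx2 stayed under 20 CPM in both libraries, and Spic had 0 UMIs in JupLow against 111 in 2i/LIF, at least 12.9-fold lower.

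Per cell, the naive genes were spread thinly but widely in JupLow. In cells thinned to 1000 UMIs, at least 1 UMI of the 18 genes appeared in 66.6% (63.8 to 69.3) of 1200 JupLow cells and in 97.9% (97.3 to 98.4) of 2889 cells in 2i/LIF. Unthinned, the shares were 84.2% at a median depth of 2193.5 UMIs and 99.6% at 2465. The median cell held 1 naive UMI in JupLow (quartiles 0 and 2, highest 12) and 5 in 2i/LIF (quartiles 3 and 7, highest 17). The summed level in barcodes under 1000 UMIs was 2220 CPM in JupLow against 1705 in its cells, and 4860 against 4929 in 2i/LIF. The sparse barcodes thus showed the same order of the libraries as the cells. Free RNA and small cells were not separated there. Among cells at or below 15% mitochondrial UMIs the thinned shares were 73.5% (70.2 to 76.6) of 750 JupLow cells and 99.6% of 2489 in 2i/LIF, and among those above it 55.1% and 87%.

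Core pluripotency genes did not share the naive pattern. All 10 on the list reached 20 CPM, with a median of 0.55. In JupLow 3 were 2-fold or more higher (30%, against 11.6% of all tested genes) and none 2-fold lower (against 8.09%). Pou5f1, which encodes Oct4, had 398 CPM in JupLow and 585 in 2i/LIF (-0.56), Sox2 had 207 and 245 (-0.24), and Sall4 had 344 and 255 (0.43). Utf1, a chromatin factor of pluripotent cells, was higher at 533 against 129 (2.04, 1.93 to 2.16), and a UMI of it was seen in 41.3% against 13.3% of thinned cells (61.8% and 28.2% unthinned). Barcodes under 1000 UMIs held Utf1 at 927 CPM in JupLow and 181 in 2i/LIF. Dppa2 and Dppa4, a pair of chromatin-binding partners, stood at 109 against 37.5 (1.53) and 145 against 53.2 (1.45). The general pluripotency genes were therefore present on both sides, with Utf1, Dppa2 and Dppa4 higher in JupLow.

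Of 12 formative and primed genes, 8 reached 20 CPM, with a median log2 ratio of 2.44. In JupLow 7 of the 8 were 2-fold or more higher (87.5%, against 11.6% of all tested genes) and none lower (against 8.09%). Pou3f1, or Oct6, a POU factor of the formative epiblast, was the extreme: 609 UMIs and 212 CPM in JupLow against 10 UMIs and 1.21 CPM in 2i/LIF (7.45, 6.56 to 8.52). Otx2, the factor that moves enhancer use towards the formative state, had 53.9 against 12.8 CPM (2.07, 1.71 to 2.44). Sox4 had 89.98 against 9.29 (3.28), Sox3 23.97 against 3.501 (2.78) and Grhl2, an epithelial grainyhead factor, 35.1 against 1.57 (4.48). Lef1 had 33.7 and 19.9 (0.76), under 2-fold. Fgf5, the classic primed marker, had 14 UMIs in JupLow and 0 in 2i/LIF, at least 13.4-fold higher yet far under 20 CPM. The other 2 of the 7 were Dnmt3a and Dnmt3b, described with the methylation genes. Of the 7 only Sox3 overlaps no other annotated gene.

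Naive and formative UMIs were then counted in the same cells. After thinning, 39.5% (36.7 to 42.3) of JupLow cells held UMIs of both naive and formative genes, 27.1% only naive, 19.5% (17.3 to 21.9) only formative and 13.9% neither. In 2i/LIF 78.7% held only naive UMIs, 19.2% both, 1.87% neither and 0.242% (0.0975 to 0.499) only formative, which was 7 of 2889 cells. The product of the separate naive and formative shares is 39.3% in JupLow and 19.04% in 2i/LIF, close to the shares with both. A formative UMI was found in 59.0% (56.2 to 61.8) of thinned JupLow cells and 19.5% (18.02 to 20.9) of 2i/LIF cells, or 78.7% and 42.1% unthinned. Without cells above 15% mitochondrial UMIs it was found in 65.2% (61.7 to 68.6) and 20.97%. The formative genes summed to 1222 CPM in JupLow cells and 845 in its barcodes under 1000 UMIs, against 249 and 158 in 2i/LIF, and the part of free RNA in the shares was not tested. The histogram of UMIs per cell shows overlapping distributions rather than separate blocks, so no cell classes were cut from it.

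**Figure D2:**
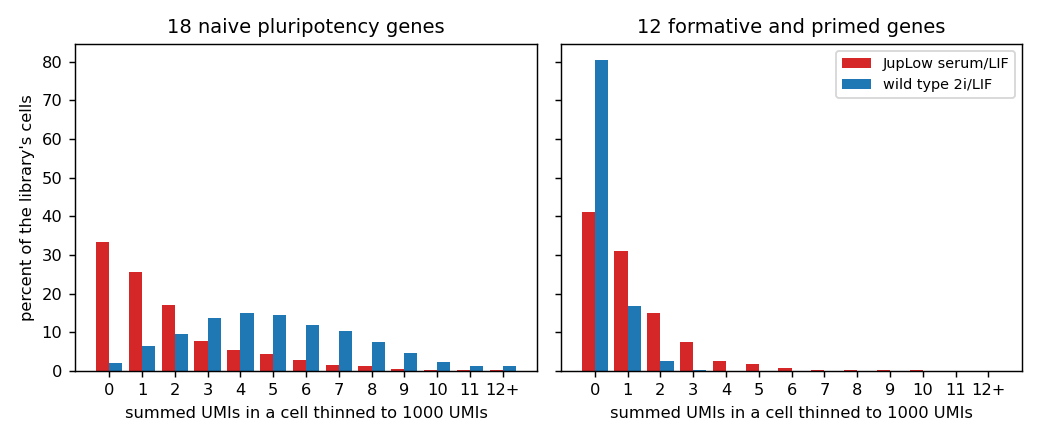
Percent of each library's cells (vertical) by the summed UMIs of 18 naive genes (left) or 12 formative and primed genes (right) in cells thinned to 1000 UMIs (horizontal), for 1200 JupLow serum/LIF cells in red and 2889 wild type 2i/LIF cells in blue. The median is 1 naive UMI in JupLow and 5 in 2i/LIF, and 1 and 0 formative UMIs.

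The DNA methylation machinery leaned towards its de novo arm in JupLow. Of 9 genes 7 reached 20 CPM, with 3 higher (42.9%, against 11.6% of all tested genes) and 0 lower (against 8.09%). Dnmt3b, a de novo methyltransferase, had 647 CPM in JupLow against 150.0 (2.11, 2.004 to 2.21), and was found in 40.6% against 11.98% of thinned cells (60.4% and 29.1% unthinned; 418 and 85.9 CPM in barcodes under 1000 UMIs). Its catalytic partner gene Dnmt3a had 96.6 against 42.6 (1.18), and Dnmt3l, the cofactor without enzyme activity, 291 against 26.4 (3.46). The maintenance genes differed less: Dnmt1 had 161 and 144 (0.16) and Uhrf1 135 and 212 (-0.65). Tet1 stood at 292 and 196 (0.57) and Tet2 at 21.2 and 36.8 (-0.797).

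ERK target genes, which MEK inhibition is known to lower, stood higher in JupLow. Of 16 on the list 10 reached 20 CPM, with a median of 2.78. Of these 7 were 2-fold or more higher (70%, against 11.6% of all tested genes) and none lower (against 8.09%). Dusp6, a phosphatase that ERK induces and that acts back on it, had 104 CPM against 10.3 (3.34, 2.99 to 3.71). Phlda1 had 61.1 against 2.29 (4.74), Spry4 36.5 against 4.104 (3.15) and Spred1, like Spry4 an inhibitor of the pathway, 164 against 30.8 (2.41). Dusp4 had 79 UMIs against 2 (6.83, 4.93 to 9.9) and Dusp5 82 against 1 (7.88, 5.36 to 13.204). Etv5 did not follow them, with 213 and 201 CPM (0.08, -0.05 to 0.22).

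A few targets of WNT and beta-catenin stood lower in JupLow, while most of their list that reached 20 CPM was under 2-fold. Of 14 genes 8 reached 20 CPM, and the median was -0.02. In JupLow 3 were 2-fold or more lower (37.5%, against 8.09% of all tested genes) and none higher (against 11.6%). The 3 were direct feedback targets: Axin2, a scaffold of the destruction complex, with 12.5 against 74.7 CPM (-2.58, -3.11 to -2.09), Notum, a secreted enzyme that inactivates WNT, with 15.98 against 108 (-2.76), and the zinc finger gene Sp5 with 15.98 against 68.1 (-2.09). Cdx1 stayed under 20 CPM with 1 UMI in JupLow against 147 (-5.67, -10.99 to -3.17). Ccnd1 had 191 and 206 (-0.11), and the factors Tcf7 and Tcf7l1 had log2 ratios of 0.08 and 0.34.

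The BMP and Id group stood higher. Of 10 genes 8 reached 20 CPM, with a median of 1.12. Of these 5 were higher (62.5%, against 11.6% of all tested genes) and 0 lower (against 8.09%). The Id genes, BMP targets whose products block helix-loop-helix factors, led it: Id1 had 259.5 against 26.8 CPM (3.28, 3.06 to 3.498), Id2 132 against 4.22 (4.97) and Id3 173 against 69.05 (1.33). The ligand gene Bmp4 had 52.8 against 24.4 (1.11) and the receptor gene Bmpr1a 64.97 against 29.7 (1.13). Id1 in JupLow was above all 4 other single-cell libraries, the nearest being gels at 139.7 CPM.

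Of 9 tested LIF and STAT3 genes 3 were higher (33.3%, against 11.6% of all tested genes) and 1 lower (11.1%, against 8.09%). Their median was -0.37. Stat3 had 54.9 and 95.2 CPM (-0.79) and its feedback inhibitor Socs3 63.9 and 106 (-0.74), while Junb had 57.7 against 14.97 (1.95), Jak1 60.8 against 24.99 (1.28) and the kinase gene Pim1 189 against 85.5 (1.14). Of the Nodal and mesendoderm genes 5 of 11 reached 20 CPM, and Lefty2, a Nodal inhibitor, was the only 2-fold difference with 27.4 against 72.3 (-1.397). Lower genes were thus 1 of the 5 (20%), against 8.09% of all tested genes. Nodal itself had 48.6 and 38.4 (0.34).

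Some of the widest ratios belonged to genes of the contractile cytoskeleton. Of 20 actin and contractile genes 19 reached 20 CPM, with a median log2 ratio of 2.80. In JupLow 15 were 2-fold or more higher (78.9%, against 11.6% of all tested genes) and 1 lower (5.26%, against 8.09%). Genes at 0 in 2i/LIF entered at the bound that 3 UMIs give. Tagln, or transgelin, an actin-bundling protein of smooth muscle and stress fibres, had 1763 UMIs and 613 CPM in JupLow against 2 UMIs and 0.241 CPM in 2i/LIF, a log2 ratio of 11.31 (9.45 to 14.36). Acta2, smooth muscle alpha-actin, had 1588 UMIs and 552 CPM against 3 UMIs (10.57, 9.02 to 12.85). Both were thus nearly absent from the counts of 2i/LIF.

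Genes of the same apparatus with no UMI in the 8284254 of 2i/LIF were Cnn1, Acta1 and Actc1. Cnn1, smooth muscle calponin, had 177 UMIs in JupLow, at least 169.8-fold higher. The skeletal actin gene Acta1 had 194, at least 186-fold higher, and the cardiac actin gene Actc1 had 59, at least 56.6-fold higher. The coding sequences of actin genes are nearly alike, so reads could be split between them and the values of single actins are uncertain to that degree. Actg2, the enteric smooth muscle actin gene, was low in both with 7 UMIs in JupLow and 26 in 2i/LIF, 2.43 and 3.14 CPM.

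Myl9, the regulatory light chain of smooth muscle myosin, had 162 UMIs against 1 (8.86, 6.37 to 14.18). The tropomyosin genes followed, Tpm1 with 661 against 41.4 CPM (3.997, 3.83 to 4.17), Tpm2 with 125 UMIs against 3 (6.91, 5.33 to 9.203) and Tpm4 with 238 against 34.3 CPM (2.797). Actg1, one of the cytoplasmic actins, had 2265 against 785 (1.53), and Actb, the other, 3679 against 2499.9 (0.56), under 2-fold. Mylk, the kinase gene for the light chain, was the exception with 9.73 against 24.7 (-1.35).

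Contractile transcripts were unevenly spread over JupLow cells. Tagln was seen in 26.4% (23.9 to 29.01) of thinned JupLow cells and 0.0346% (0.000876 to 0.193) of 2i/LIF cells, or 38.2% and 0.0692% unthinned. Acta2 was seen in 18% (15.9 to 20.3) and 0.0346%, or 27.4% and 0.104% unthinned. The thinned JupLow cell held a median of 7 UMIs of the 20 genes (quartiles 3 and 13, highest 141), against 4 in 2i/LIF (quartiles 2 and 6, highest 15). Among cells at or below 15% mitochondrial UMIs the medians were 11 and 4, and among those above it 3 and 1. JupLow barcodes under 1000 UMIs held Tagln at 892 CPM and Acta2 at 854 CPM, above the levels in its cells, and how far free RNA adds to the shares in cells was not tested.

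Promoters of these genes are shown for a sequence that contractile genes are known for, the CArG box that serum response factor binds (CC, then 6 bases of A or T, then GG, a palindromic pattern searched on both strands). RefSeq windows of 250 bases upstream of the start (GRCm38.p6) existed for 17 of the 20 genes, and 6 of the 17 (35.3%) held an exact box. So did 439 of all 27025 genes with a window (1.62%) and 83 of the 5423 tested ones (1.53%). Among the tested, a box was held by 23 of 673 genes 2-fold higher in JupLow (3.42%) and 7 of 438 lower (1.598%). The 6 were Acta1, Actc1, Actg1, Cnn2, Myl9 and Myl6. Acta1, Actc1, Actg1, Cnn2 and Myl9 are also among the 23 higher genes, so these counts share genes. Each sequence below reads 5′ to 3′ on the gene's own strand, with the box in capitals, and only windows free of annotated exons are shown. They lie at chr8:123894819-123894898 (minus strand), chr2:114052893-114052972 (minus), chr11:120348556-120348635 (minus), chr10:79988494-79988573 (plus) and chr2:156775253-156775332 (plus).
Acta1: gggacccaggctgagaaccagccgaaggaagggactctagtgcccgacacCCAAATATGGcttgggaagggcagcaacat
Actc1: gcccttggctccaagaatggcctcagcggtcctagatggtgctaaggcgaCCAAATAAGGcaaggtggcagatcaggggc
Actg1: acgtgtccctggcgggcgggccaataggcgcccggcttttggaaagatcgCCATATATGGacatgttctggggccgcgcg
Cnn2: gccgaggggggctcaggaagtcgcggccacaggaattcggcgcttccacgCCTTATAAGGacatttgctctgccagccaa
Myl9: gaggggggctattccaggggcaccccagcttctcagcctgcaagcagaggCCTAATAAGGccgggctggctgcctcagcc
The 50 leading bases of each line are set by the display. The end of the box lies 64 bases from the start site in Acta1, 38 in Actc1, 81 in Actg1, 47 in Cnn2 and 152 in Myl9. The 6 inner bases differ between genes. Cnn2, calponin 2, had 126 CPM in JupLow against 6.52 in 2i/LIF (4.27). Acta2 and Cnn1 held no exact box in their windows, although their ratios were among the widest. Tagln, with a log2 ratio of 11.31, is not among the 6 either, and whether it had a window is not given here. A match describes the letters only and shows no binding.

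Genes that YAP and TEAD are known to drive were higher as well. Of 12 on the list 8 reached 20 CPM, with a median of 3.50. Of these 7 were higher (87.5%, against 11.6% of all tested genes) and 0 lower (against 8.09%). The matricellular genes Ccn1 and Ccn2 had 102 against 7.001 CPM (3.86, 3.45 to 4.29) and 85.8 against 5.43 (3.98, 3.52 to 4.47). Ajuba, a LIM protein, had 146 against 40.6 (1.85) and Amotl2, an angiomotin, 116 against 49.3 (1.24). Tead1, which encodes the DNA-binding partner, had 236 against 121 (0.96), just under 2-fold. Thbs1, the adhesive glycoprotein thrombospondin and a gene named for its ratio alone, had 571 UMIs in JupLow and 0 in 2i/LIF, at least 548-fold higher.

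Integrin and focal adhesion genes stood higher too, with a median of 1.66. Of 11 tested 9 were higher (81.8%, against 11.6% of all tested genes) and 0 lower (against 8.09%). Itgb1, the beta-1 integrin that pairs with most matrix receptors, had 327 against 50.2 CPM (2.703, 2.53 to 2.87). Itga3, a laminin-receptor subunit, had 153 against 1.69 (6.499, 5.74 to 7.38), and Zyx, the stress fibre protein zyxin, 55.2 against 0.966 (5.84). Vcl, or vinculin, which couples adhesions to actin, had 183 against 53.96 (1.76).

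Of 15 matrix genes 14 reached 20 CPM. Of these 7 were higher (50%, against 11.6% of all tested genes) and 2 lower (14.3%, against 8.09%). The basement membrane collagen genes Col4a1 and Col4a2 had 73.7 against 3.02 CPM (4.61) and 45.9 against 0.604 (6.25). The laminin chains split: Lamb1 had 88.2 against 16.4 (2.43), Lama1 15.98 against 33.8 (-1.08) and Lamc1 134 against 198 (-0.56). Fn1, fibronectin, had 346 and 454 (-0.39). In the lamina and LINC group, 6 of 7 tested genes were under 2-fold, Lmna among them with 61.5 and 35.5 (0.79). Vim, the intermediate filament vimentin, was the 1 lower (14.3%, against 8.09% of all tested genes), with 143 against 457 (-1.68, -1.83 to -1.53).

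Epithelial genes were higher in JupLow, although Cdh1 was present on both sides. Of 10 tight junction and epithelial genes 8 reached 20 CPM, with a median of 2.78. Of these 7 were higher (87.5%, against 11.6% of all tested genes) and 0 lower (against 8.09%). Epcam, an epithelial adhesion molecule, had 417 against 22.2 CPM (4.23, 4.01 to 4.46). Cldn6, a claudin of tight junction strands in early embryos, had 116 against 3.26 (5.15), Cgn, cingulin, 94.2 against 4.104 (4.52), and the scaffold gene Tjp1 114 against 47.8 (1.25).

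Among the junction partners of plakoglobin, 10 of 14 adherens junction and desmosome genes reached 20 CPM. Of these 3 were higher (30%, against 11.6% of all tested genes) and 0 lower (against 8.09%). Cdh1, E-cadherin, had 443 and 288 CPM (0.62), and Ctnnb1, beta-catenin, 574 and 395 (0.54). Ctnna1, alpha-catenin, which links cadherin complexes to actin, had 494 against 175 (1.5, 1.39 to 1.61) and Cdh3, P-cadherin, 70.2 against 12.7 (2.47). Dsp, desmoplakin, which ties plakoglobin to keratin filaments, had 78.2 against 3.98 (4.29, 3.76 to 4.87). The desmosomal cadherin Dsc2 had 40 UMIs in JupLow and 0 in 2i/LIF, at least 38.4-fold higher, while Dsg2 had 35.1 and 34.2 CPM (0.04).

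Keratins of simple epithelia were among the genes with the widest ratios. All 3 of the 4 that reached 20 CPM were higher, against 11.6% of all tested genes. The filament partners Krt8 and Krt18 had 544 against 12.7 CPM (5.42, 5.14 to 5.72) and 299 against 0.845 (8.47, 7.42 to 9.79), and Krt19 had 25.01 against 0.724 (5.11). A keratin UMI was found in 29.8% (27.3 to 32.5) of thinned JupLow cells and 1.35% of 2i/LIF cells, or 41.8% and 3.74% unthinned. At or below 15% mitochondrial UMIs the thinned shares were 36.9% and 1.57%, and above it 18% of 450 JupLow cells and 0 of 400 2i/LIF cells. The thinned JupLow cell with the most held 30 keratin UMIs, against 2 in 2i/LIF. In JupLow barcodes under 1000 UMIs the keratins summed to 1136 CPM, against 883 in cells.

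Most markers of other cell types stayed under 20 CPM in both libraries. No 2-cell-like gene reached 20 CPM, and the 8 that were found, some of them near-identical copies in clusters, summed to 14.2 CPM in JupLow and 0.604 in 2i/LIF. Of 12 primitive endoderm genes only Dab2, an endocytic adaptor, reached it, with 20.2 CPM against 3 UMIs in 2i/LIF (5.798, 4.18 to 8.12), and Gata6 had 5.56 CPM against 0 UMIs, Sox17 0.347 and Gata4 1.74 CPM in JupLow. Of the markers of neural, mesodermal and trophoblast lineages only Nes, the filament nestin, reached it, with 86.2 against 6.52 CPM (3.72). Of the fibroblast markers, a cell type known to express contractile genes, 8 of 9 were found, without Lum, and only Col5a1 reached 20 CPM, with 36.8 against 8.93 (2.04). Their summed level was 65.3 CPM in JupLow and 12.4 in 2i/LIF, with Col1a1 at 13.2, Col3a1 at 2.43 and Dcn at 0 in JupLow, and their part in the contractile difference was not tested.

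Glycolytic and hypoxia genes were higher for 5 of 16 tested (31.2%, against 11.6% of all tested genes) and lower for 1 (6.25%, against 8.09%), with a median of 0.57. Slc2a1, the glucose transporter GLUT1, had 312 against 65.5 CPM (2.25, 2.096 to 2.41) and Ldha, lactate dehydrogenase A, 537 against 176 (1.61, 1.505 to 1.71). Pfkl and Pfkp, isoforms of phosphofructokinase, stood opposite each other, Pfkl with 84.8 against 29.5 (1.53) and Pfkp with 31.96 against 79.4 (-1.31). Nuclear genes of the respiratory chain were all under 2-fold, while 11.6% of all tested genes were higher and 8.09% lower. Yet 18 of 18 lay below 0, against 3708 of all 7304 tested genes, with a median of -0.54. Cox5a was the furthest, with 463 against 917 (-0.99).

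Mitochondrially encoded genes had a median of 0.31 over 11 tested. The 1 lower (9.09%, against 8.09% of all tested genes) was mt-Atp6, at 3547 against 7712 CPM (-1.12). Nuclear copies of mitochondrial genes are counted as separate genes and can share reads with them, so the values of single mitochondrial genes are uncertain. Per thinned cell the list had a median of 46 UMIs in both libraries, with upper quartiles of 233 in JupLow and 67 in 2i/LIF. Cells above 15% mitochondrial UMIs, 37.5% of JupLow and 13.8% of 2i/LIF cells, enter these sums. With those cells left out, 129 of the named log2 ratios that were checked stayed within their counting interval. Another 29 fell outside it, and 0 were reversed. The ratios of single mitochondrial genes without those cells are not given here. Of the 89 cytoplasmic ribosomal protein genes 88 were tested, and 87 lay below 0, against 3708 of all 7304 tested genes. Their median was -0.56, the same lean as the 9.85% against 6.70% of UMIs that they took. At 2-fold 5 of the 88 were lower, 5.68%, a smaller share than the 8.09% of all tested genes. Named after their values were seen, they were Rpl10l (-3.07), Rpl39l (-2.20), Rpl22l1 (-1.37), Rpl32l (-1.10) and Rps29 (-1.01). Leaving mitochondrial and ribosomal protein genes out of the total gave 907 higher and 691 lower genes of 7980.

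Several genes of the Myc and Lin28 list stood higher. Of the Myc and Lin28 genes 4 of 7 tested were higher (57.1%, against 11.6% of all tested genes) and none lower (against 8.09%). Myc had 121 against 19.1 CPM (2.66, 2.38 to 2.94) and Mycn 369 against 148 (1.32). Lin28a and Lin28b, which block let-7 maturation, had 207 against 100.4 (1.04) and 63.2 against 20.8 (1.61). Cell cycle genes differed little. Of 14 S phase genes 1 was 2-fold higher (7.14%, against 11.6% of all tested genes), Ccne2 with 22.2 against 10.7 (1.05). The median was -0.31. None of 13 G2 and M phase genes was 2-fold higher (against 11.6% of all tested genes) or lower (against 8.09%), and their median was 0.14.

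The p53 targets were 5 higher (45.5%, against 11.6% of all tested genes) and 1 lower (9.09%, against 8.09%) of 11 tested. Perp, a desmosome and apoptosis gene, had 81.99 against 1.69 CPM (5.6), Pmaip1, or Noxa, 45.2 against 1.81 (4.64), Mdm2 228 against 79.9 (1.51) and Ccng1 286 against 101 (1.497). Cdkn1a, the cell cycle inhibitor p21, was the 1 lower gene, with 80.6 against 192 (-1.25, -1.46 to -1.05). Over the list 9 of 11 ratios lay above 0, against 3596 of all 7304 tested genes, with a median of 0.85. In the list of the integrated stress response and serine synthesis 4 of 11 were lower (36.4%, against 8.09%) and 1 higher (9.09%, against 11.6%). Atf4 had 41 against 151 (-1.88), its target Asns 47.6 against 194 (-2.03) and Shmt2 59.1 against 126 (-1.09). Atf5 had 10.8 against 27.4 (-1.35) and Ddit4, the higher one, 67.1 against 22.6 (1.57). Immediate early and heat shock genes, which handling is known to induce, had a median of 0.15. Of 7 tested 3 were higher (42.9%, against 11.6%) and 0 lower (against 8.09%). Jun, which encodes a subunit of AP-1, had 30.6 against 1.21 CPM (4.66), while Fos stayed under 20 CPM with 6.601 and 0.241. Their part in the other differences was not tested.

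Of 18 tested cholesterol and fatty acid genes 3 were lower (16.7%, against 8.09% of all tested genes) and none higher (against 11.6%). The lower ones were Scd2 with 162 against 662 CPM (-2.03, -2.17 to -1.896), Scd1 with 9.38 against 52.1 (-2.47, -3.09 to -1.91) and the sterol sensor gene Insig1 with 10.4 against 22.5 (-1.11). Both desaturases make monounsaturated fatty acids. Cyp51, an enzyme of sterol synthesis, stayed under 2-fold, at 60.8 and 60.96 CPM (-0.004).

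Of 14 tested imprinted genes 6 were higher (42.9%, against 11.6% of all tested genes) and 2 lower (14.3%, against 8.09%). H19, a maternally expressed long non-coding RNA, had 477 UMIs and 166 CPM against 4 UMIs (8.42, 7.06 to 10.305), Phlda2 233 against 3.38 CPM (6.11), Cdkn1c, the inhibitor p57, 94.8 against 1.81 (5.71) and Grb10 130.3 against 4.47 (4.87). Peg10, a paternally expressed gene of retroviral origin, had 159 against 23.5 (2.75). Plagl1 stood lower, with 7.64 against 44.3 (-2.54), and Meg3 had 298 and 362 (-0.28). The genes higher in JupLow thus included maternally and paternally expressed ones.

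**Figure D3:**
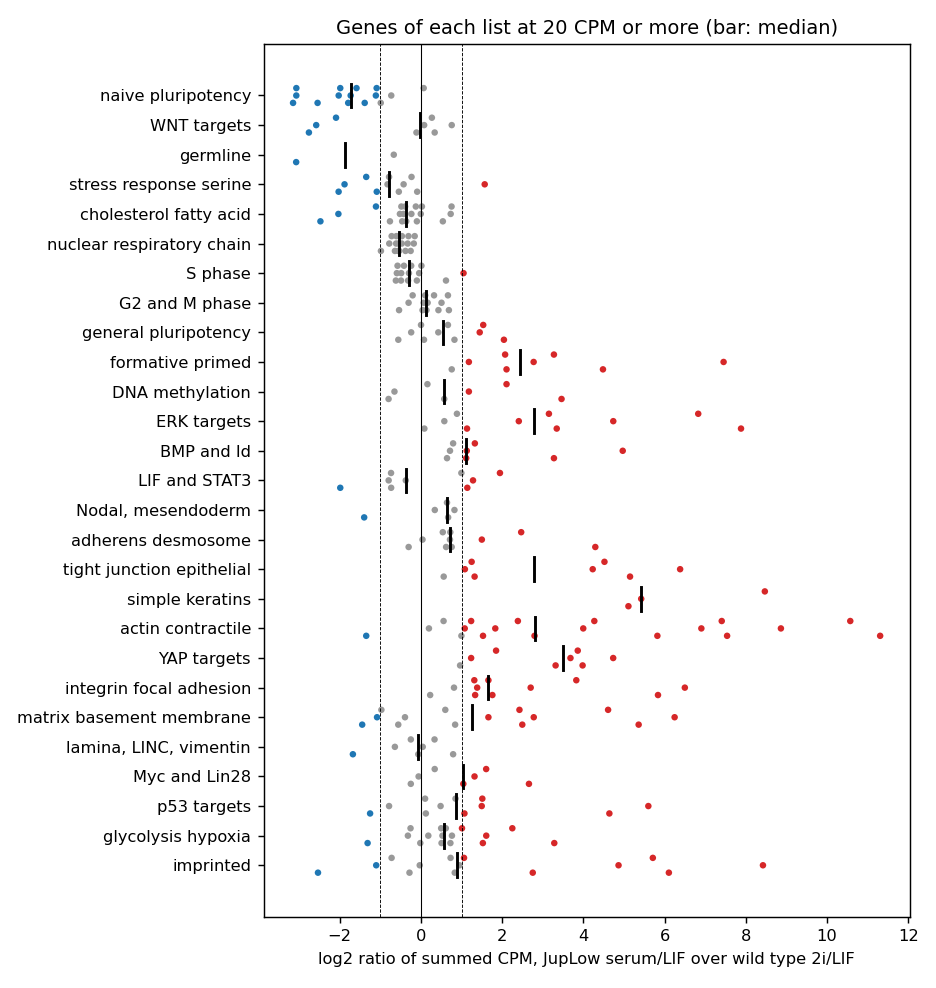
Each point is the log2 ratio of summed CPM, JupLow serum/LIF over wild type 2i/LIF (horizontal), of 1 gene at 20 CPM or more, in rows by gene list, with red at 2-fold or more higher, blue at 2-fold or more lower and a black bar at the list's median. The median is -1.73 for naive pluripotency and 5.42 for the simple keratins, and the 18 nuclear respiratory chain genes all lie between the dashed 2-fold lines.

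The genes with the widest ratios at 100 CPM or more also held some that no list covered. Gsn, the actin-severing protein gelsolin, had 434 UMIs in JupLow against 3 (8.702, 7.14 to 10.98) and S100a6, a calcium-binding protein, 539.5 CPM against 5.67 (6.57). On the low side Kit, a receptor tyrosine kinase, had 14.9 against 146 (-3.29), Trh, a thyrotropin-releasing hormone gene, 23.97 against 256 (-3.42), and H2ac7, one of a family of near-identical histone genes and so uncertain, 6.95 against 177 (-4.67). Ly75, Slc4a5, Zfp940 and 1700097N02Rik, with log2 ratios of -3.45, -3.32, -5.08 and -4.75, complete the 10 lowest with 2 pseudogenes described next and Tfcp2l1.

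A few loci were at or near 0 in 1 of the 2 libraries. The long intergenic RNA 4933404K13Rik (chr10:43824200-43833392, plus strand) had 675 UMIs and 235 CPM in JupLow, 1 UMI in 2i/LIF (10.92, 8.44 to 16.23) and 0 in each of the other 3 libraries. It was seen in 20% of thinned and 38.1% of unthinned JupLow cells, and barcodes under 1000 UMIs held it at 351 CPM. Its neighbours were looked up after that value was seen. Qrsl1, 40.8 kb away, had 22.9 CPM in JupLow and 21.8 in 2i/LIF, and Rtn4ip1 8.34 and 5.55. Others were higher in JupLow, with smaller ratios: Crybg1 had 10.1 against 0.362 CPM from 29 and 3 UMIs, Bend3 70.2 against 23.2 and Cd24a 38.6 against 19.6. In the same order these genes stood at 8.42, 73.3 and 31.7 CPM in wild type serum/LIF. They stood at 4.23, 63.5 and 59.3 in gels and at 1.39, 41.3 and 11.4 in JupHigh. Levels above 2i/LIF were thus not particular to JupLow for these neighbours. Gm47889 was lower, with 4.17 against 10.02 CPM from 12 and 83 UMIs, and Gm9803 had 21.5 against 29.5. The processed pseudogene Gm19931 (chr5:113817225-113817592, plus strand) had 0 UMIs in JupLow and 5462 in 2i/LIF, 659 CPM, at least 633-fold lower, and at most 0.232 CPM in the other 3. Another, Gm9391 (chr14:120827158-120827546, plus strand), had 0 against 1005 UMIs, at least 116-fold lower, yet 135 CPM in wild type serum/LIF. A processed pseudogene can share reads with the gene it was copied from, so both counts are uncertain.

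The share of cells with a UMI pointed to abundant genes. After thinning, Tmsb4x, the actin-sequestering peptide thymosin beta-4, was found in 57.2% (54.3 to 59.99) of JupLow and 18.8% (17.4 to 20.3) of 2i/LIF cells (74.8% and 37.3% unthinned), S100a6 in 30.7% and 0.588% (49.5% and 1.59%) and Tpm1 in 32.2% and 3.77% (50.6% and 10.9%). The metallothionein genes Mt1 and Mt2, whose products bind zinc and copper, went the other way: Mt1 in 28.7% of JupLow and 73.4% of 2i/LIF cells (46% and 92.4% unthinned; 386 and 1454 CPM), and Mt2 in 29.4% and 70.4% (46.6% and 90.5%; 377 and 1293 CPM). Chchd10, a protein of the mitochondrial intermembrane space, was found in 16.9% and 48.1% (32.7% and 73.4%). Barcodes under 1000 UMIs held Tmsb4x at 2129.9 CPM in JupLow and 298 in 2i/LIF, S100a6 at 1135 and 12.2 and Tpm1 at 776 and 26.4. They held Mt1 at 873 and 2541, Mt2 at 880.3 and 2298 and Chchd10 at 357 and 839.7 CPM. These differences had the same direction in sparse barcodes as in cells. Such barcodes come from the same library, and its free RNA and small cells were not separated there. The agreement is therefore no independent support for the shares.

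The other serum/LIF libraries share the 2i/LIF library as their reference, so only levels are set side by side. Nanog stood at 92.4 CPM in JupLow, 82.8 in wild type serum/LIF, 152 in gels and 449.8 in JupHigh, against 539 in 2i/LIF, and the 18 naive genes summed to 1705, 1468, 1871, 5109 and 4929 CPM in that order. Tagln stood at 613, 235, 119, 5.103 and 0.241 CPM, and Krt18 at 299, 247, 55.04, 5.57 and 0.845. For Nanog, the naive sum and Krt18, JupHigh was nearer to 2i/LIF than to the other serum/LIF libraries. Acta2 stood at 552 CPM in JupLow, 499 in wild type serum/LIF, 8.47 in gels from 2 UMIs (1.03 to 30.6), 8.82 in JupHigh and 0.362 in 2i/LIF.

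**Figure D4:**
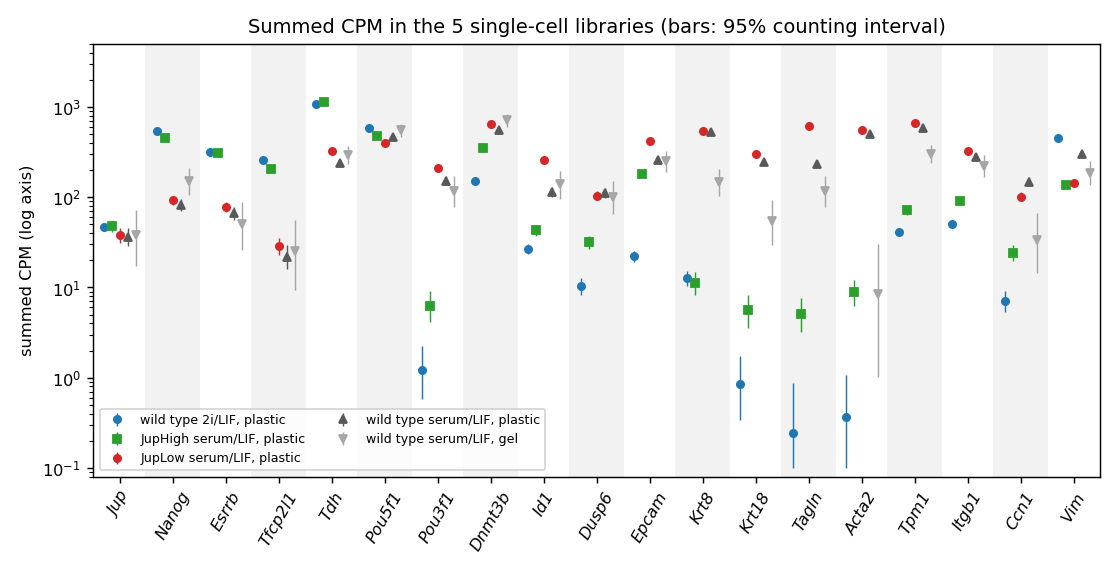
Summed CPM (vertical, log axis, values under 0.1 drawn at 0.1) of 19 genes in the 5 single-cell libraries, with bars for the 95% counting interval. JupLow (red) lies near wild type serum/LIF for the naive genes and for Krt8, while JupHigh (green) lies near wild type 2i/LIF (blue) for Nanog, Esrrb and Tdh.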

How the data were processed

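Single cells of 5 cultures were profiled with inDrop, and the authors deposited 1 table of UMI counts per library, with barcodes in rows and gene symbols in columns, not normalized. Per the submitters' processing notes the series used FastQC, STAR, featureCounts, DESeq2 and Scanpy with the builds mm10 and GRCm38; which step each served, their versions and whether counting used strand are not given in the sources used here. The last row of the gel table, cut short, was left out.

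Cells were barcodes with at least 1000 UMIs and at most 0.9 genes per UMI. No limit was set on mitochondrial UMIs. No doublet caller was run; 6 JupLow and 35 2i/LIF cells held over 3 times the median UMIs. UMIs without a gene name (0.246% and 0.0908%) were left out. Counts were summed per library, scaled to CPM and compared as a log2 ratio with an exact Poisson or conditional binomial interval (95%); shares of cells, with exact Clopper-Pearson intervals, used cells thinned to 1000 UMIs. A gene was tested where it reached 20 CPM in a library and called at 2-fold. With 0 UMIs, 3 UMIs gave the bound, in the library's own total. With 1 library a condition there are no p-values.

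Named genes were list members at 2-fold or central to a list, the 10 widest ratios in each direction at 100 CPM or more, and the 5 widest differences in thinned share in each direction. The members and lists were chosen with earlier results of these data known. Gene positions and overlaps came from GENCODE M21 (28700 of 29686 symbols matched) and promoters from RefSeq (GRCm38.p6). Python 3.11.15, numpy 2.4.6, scipy 1.17.1 and matplotlib 3.10.9 were used, and R 4.3.3 with edgeR 4.0.16 and DESeq2 1.42.0 for alternative size factors only.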

Additional observations from a re-analysis of the deposited data

How the results depend on the processing

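Of the 7304 genes tested, 845 were 2-fold or more higher and 591 lower. The counts moved past 1.5 times with the filter: 205 and 139 at 100 CPM, 1809 and 1198 at 5 CPM, and 4164 and 2227 with no filter. At a ratio of 1.5 they were 1482 and 1412, and at 4 they were 363 and 137. Without genes that overlap another they were 357 and 296, of 3233 tested. The formative and primed genes called higher, 7 as reported, were 2 at 100 CPM and 1 without overlapping genes, where fewer genes were tested, 5 with each cell weighted alike and 6 to 10 under the other alternatives. Naive genes called lower, 12 as reported, ranged from 5 at a ratio of 4 to 14. TMM scaling gave 734 higher and 697 lower, and median ratios 730 and 703. Leaving out nuclear copies of mitochondrial genes too, an alternative chosen after seeing the data, gave 1036 and 708. Leaving out cells above 15% mitochondrial UMIs, also chosen after seeing the data, gave 931 and 526, with 11 naive genes lower and 7 formative genes higher; 29 of 158 named ratios then fell outside their counting interval. A pseudocount of 5 CPM moved 61 of 158 and took the log2 ratio of Tagln from 11.31 to 6.88 and that of Acta2 from 10.57 to 6.70; 500 UMIs a cell moved 26 and 2000 UMIs 15. Shares of cells depend on the depth they are thinned to: at 2000 UMIs all 10 share differences named kept their direction, Dnmt3b stood at 64.5% of JupLow cells in place of 40.6%, and formative UMIs at 84.6% and 38.3% of cells in place of 59.0% and 19.5%. None of the 158 log2 ratios checked was reversed under the alternatives run on them. They belong to genes with the widest ratios or share differences and to list members at 2-fold or more. Ratios near 0 were not checked for a reversal. No paired analysis was possible because each condition has 1 library. Depth limits genes under 20 CPM: 3 UMIs equal 1.04 CPM in JupLow and 0.362 in 2i/LIF.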

Other observations

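Of 5 sex-linked genes, 3 Y-linked ones reached 20 CPM. All 3 were 2-fold or more higher in JupLow, against 11.6% of all tested genes. Eif2s3y, a translation factor subunit, had 77.8 CPM in JupLow and 36.1 in 2i/LIF, Uty, a histone demethylase relative, 56.98 and 21.4, and Ddx3y, an RNA helicase, 87.2 and 43.2. In the other 3 libraries Eif2s3y stood at 24.4 CPM in JupHigh, 33.7 in wild type serum/LIF and 16.9 in gels, so JupLow held the highest of the 5 values. Xist had 10 UMIs in JupLow and 1 in 2i/LIF.

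Nqo1, a quinone reductase that xenobiotic and oxidative stress sensors control, was lower in JupLow, with 19.1 CPM against 102 in 2i/LIF. It was low in all 4 serum/LIF libraries, with 20.4 CPM in JupHigh, 27.3 in wild type serum/LIF and 8.47 in gels, where it rests on 2 UMIs of 236195. The other tested gene of the aryl hydrocarbon receptor list, Tiparp, was under 2-fold, with 56.3 and 33.8 CPM. Of 12 germline genes, Rpl10l, a retrogene copy that can share reads with Rpl10, and Hormad1 reached 20 CPM. Rpl10l had 34.7 CPM in JupLow against 292 in 2i/LIF, and Hormad1 16.3 against 25.95.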
